A study of Mus musculus with 12 samples.

Results

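The glucocorticoid receptor gene Nr3c1 and 9 genes that the hormone is known to induce (Fkbp5, Tsc22d3, Sgk1, Dusp1, Zbtb16, Cebpd, Cebpb, Klf9 and Per1) were examined in cardiomyocytes of newborn mice. The members were chosen by name, as the receptor and its common targets, and their Ensembl identifiers were looked up among the 52336 genes of the deposited table. All 10 were found, and all 10 had a mean normalized value of at least 10, so that all were among the 14996 genes tested. The 12 libraries fell into 4 groups of 3, all from wild type mice collected at postnatal day 3. NAC MI pups were injected daily on days 0 to 1 with N-acetylcysteine (NAC), an antioxidant that supplies cysteine, and had a coronary artery tied off on day 2, at the vessel's left anterior descending branch, to cause myocardial infarction (MI). Saline MI pups had saline and the same occlusion, NAC sham pups had NAC and a sham procedure, and saline sham pups had saline and a sham procedure. NAC was given at a dose called high, in a saline with 25 mM HEPES and 140 mM NaCl; the labels name only saline for the controls. Ventricles were pooled and digested, and cardiomyocytes were selected with a kit for neonatal cells; the labels name the left ventricle and the series text whole ventricles. The labels do not say that replicates came from separate animals or litters, so the p-values here reflect how far libraries of a group lay apart, which may be technical.

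The receptor is a transcription factor that waits in the cytoplasm in a complex with HSP90 chaperones and immunophilins such as FKBP5. Bound to corticosterone it enters the nucleus and binds palindromic response elements near genes that it switches on, and it holds back inflammatory genes through other factors. Several targets feed back on the hormone or on inflammation, and others are transcription factors themselves. In the heart, the receptor in cardiomyocytes takes part in the maturation of the fetal muscle.

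Promoter sequences are shown for 3 members, because they hold motifs of different inputs to these genes: the hormone receptor (Sgk1), cyclic AMP and immediate early signals (Dusp1) and the circadian clock (Per1). They are RefSeq windows on GRCm38.p6 from 250 bases before to 50 bases after a transcription start, read in the direction of transcription, with the motif in capitals. Of the 10 members, 7 had such windows, 15 in all.
Sgk1, chr10:21993640-21993939, plus strand: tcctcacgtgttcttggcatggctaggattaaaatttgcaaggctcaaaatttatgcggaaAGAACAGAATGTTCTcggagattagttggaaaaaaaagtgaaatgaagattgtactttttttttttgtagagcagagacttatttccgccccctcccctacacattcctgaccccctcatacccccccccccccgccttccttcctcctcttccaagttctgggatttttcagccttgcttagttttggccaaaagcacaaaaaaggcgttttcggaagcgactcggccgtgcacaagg
Dusp1, chr17:26508423-26508722, minus strand: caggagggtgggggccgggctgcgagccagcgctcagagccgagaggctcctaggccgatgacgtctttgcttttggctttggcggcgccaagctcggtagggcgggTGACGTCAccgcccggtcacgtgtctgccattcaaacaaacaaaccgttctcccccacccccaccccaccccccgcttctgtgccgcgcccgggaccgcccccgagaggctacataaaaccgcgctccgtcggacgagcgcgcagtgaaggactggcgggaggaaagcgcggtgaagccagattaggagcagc
Per1, chr11:69098699-69098998, plus strand: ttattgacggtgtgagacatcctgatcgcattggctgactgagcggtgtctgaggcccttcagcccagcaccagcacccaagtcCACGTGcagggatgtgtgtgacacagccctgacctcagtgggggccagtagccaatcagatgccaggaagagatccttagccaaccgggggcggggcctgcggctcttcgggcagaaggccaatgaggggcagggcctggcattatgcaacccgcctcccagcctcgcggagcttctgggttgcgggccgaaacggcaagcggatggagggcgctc

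The capitals in Sgk1 mark a palindromic glucocorticoid response element that begins at position -189 from the start. The pattern searched was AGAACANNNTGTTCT, which reads the same on both strands, and 3 of 32851 RefSeq windows (0.00913%) held it. Among the 15 windows of the members it stood only in this one of Sgk1. The hexamer AGAACA, searched on both strands and contained in that pattern, stood in 4 member windows, of Sgk1 and Tsc22d3, and in 19.0% of all windows. The capitals in Dusp1 mark the cyclic AMP response element TGACGTCA at position -143, a palindrome that 1.79% of all windows held. The capitals in Per1 mark the E-box CACGTG at position -166, the palindrome bound by clock factors, which 7.15% of all windows held. An E-box also stood in windows of Dusp1, Fkbp5 and Sgk1. These are letter matches and say nothing of binding in these cells.

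Depth was 14353842 to 25118341 reads per library. The defining cardiomyocyte markers were present in every library; the troponin gene Tnnt2 had 18173 to 92705 normalized reads. Transcripts of other cells were present too. The sum of 20 macrophage and monocyte markers was 1315 to 14925 in NAC MI, 11639.9 to 17371 in saline MI, 1536 to 24903 in NAC sham and 1025 to 1622 in saline sham, and none of the defining markers Ptprc, Cd68 and Csf1r was at 0. NAC sham 2 stood apart with the highest macrophage sum and the lowest sum of cardiomyocyte markers (264524), and NAC MI 2 had the lowest macrophage sum of the MI libraries. The mitochondrial share of reads was 21.7% to 27.8% in NAC MI, 24.7% to 30.2% in saline MI and 15.4% to 24.8% in NAC sham. In saline sham it was 7.65%, 13.6% and, in replicate 3, 27.7%, so that the share was higher in saline MI than in saline sham 1 and 2, and its part in the differences with MI was not tested. Sample titles carried prefixes of unstated meaning: NAC MI 1, NAC MI 2 and saline MI 3 carried R235, NAC MI 3, saline MI 1 and saline MI 2 carried R230, NAC sham 2, saline sham 1 and saline sham 2 carried R207, saline sham 3 carried R219, and NAC sham 1 and 3 carried none. No prefix held both MI and sham libraries, so prefix and surgery cannot be told apart.

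Per kilobase of exon, Dusp1 had the highest mean level of the 10 genes over the 12 libraries, 1058 normalized reads, followed by Sgk1 with 568 and Tsc22d3 with 371. Cebpb had 227 normalized reads per kilobase, Per1 203, Nr3c1 193, Klf9 164, Cebpd 159, Fkbp5 70.5 and Zbtb16 25.3. All further values are normalized read counts per gene, not per length. The panels by library show them for each gene.

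**Figure D1:**
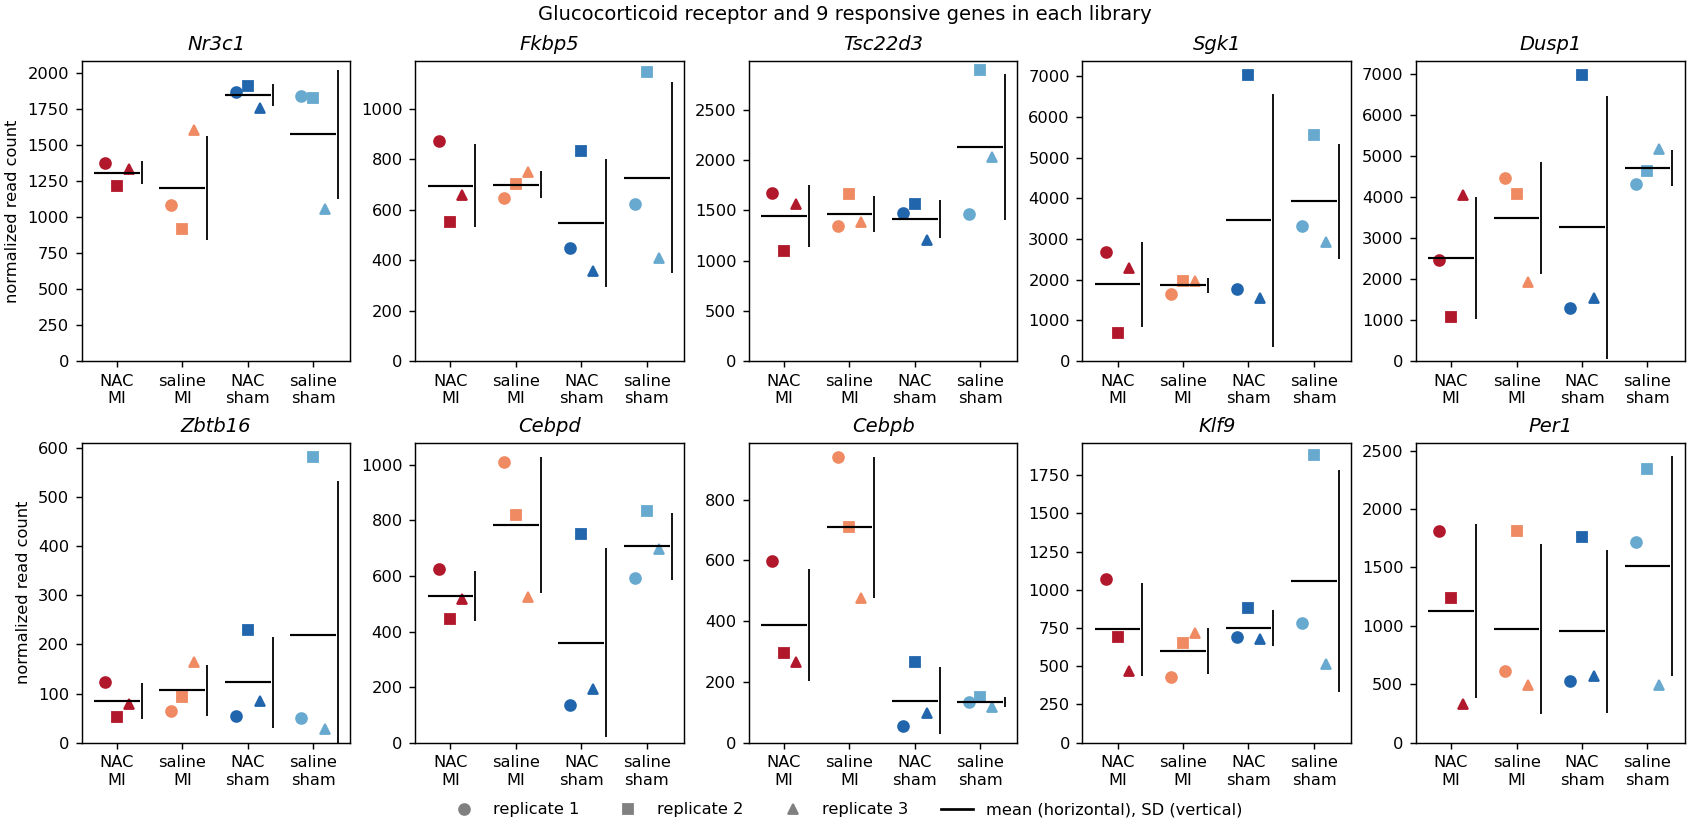
Normalized read count (vertical axes, linear from 0) of the 10 genes in the 12 libraries, with groups along the horizontal axes and marker shapes for replicates; lines show the group mean and the SD (n = 3), cut off at 0. The 6 MI libraries of Cebpb lie at 267 or above and its 6 sham libraries at 265 or below, while the other 9 genes overlap between MI and sham libraries.

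The first question was which of these genes differed between hearts with MI and with sham surgery. In limma without library quality weights, with Benjamini-Hochberg adjustment over the 14996 genes and a threshold of 0.05, Cebpb rose and no other member passed. After saline this was 1 of 10 members, in a comparison in which 0.86% of all genes passed. After NAC 0 of 10 passed in limma, edgeR and DESeq2, and 0.127% of all genes passed in limma. At an unadjusted p under 0.05 in limma there was 1 member (Cebpb), beside 1499 of all 14996 genes. Averaged over both treatments 1 of 10 passed, where 2.74% of all genes did; Cebpb was also the only member whose 6 MI libraries were all on the same side of the 6 sham libraries, as 2.21% of all genes were. The median log2 fold change of the 10 members was -0.44 after saline, -0.03 after NAC and -0.23 averaged, beside -0.01, 0.00 and 0.00 over all genes. The comparisons averaged over treatments use the same libraries as those within a treatment.

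Nr3c1 (chr18:39410545-39519421, minus strand), the receptor itself, had 1375, 1219 and 1333 normalized reads in NAC MI and 1869, 1909 and 1760.3 in NAC sham. It had 1082, 918 and 1607 in saline MI and 1839.7, 1829.8 and 1059 in saline sham. After NAC every MI library was below every sham library, whereas after saline the groups overlapped, with saline MI 3 high and saline sham 3 low in their groups. The log2 fold change was -0.50 after NAC (SE 0.24, adjusted p 0.516 in limma) and -0.44 averaged over treatments (SE 0.17, adjusted p 0.175), and neither passed. Without saline sham 3 the averaged difference was -0.57 with an adjusted p of 0.0304 in limma. In the averaged comparison 133 to 1563 of all genes passed with 1 library left out in turn. Groups that did not overlap in either direction made up 19% of all genes after NAC.

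The receptor's partners and the enzymes that handle the hormone made up 23 genes, all of them tested. Averaged over treatments 1 of them passed between MI and sham, where 2.74% of all genes did. Hsd11b1, the enzyme that regenerates active corticosterone inside cells, had 61.9, 41.7 and 40.7 normalized reads in NAC MI, then 31.4, 34.2 and 44.8 in saline MI, against 7.02, 22.8 and 13.4 in NAC sham and 7.97, 16.9 and 19.0 in saline sham. All 6 MI libraries were above all 6 sham libraries, and 2.21% of all genes were without overlap in either direction. The log2 fold change of Hsd11b1 was 1.56 averaged over treatments (SE 0.35, adjusted p 0.0345 in limma). The call was lost in 9 of 18 alternative settings, where the adjusted p reached 0.0900 at most. H6pd, which supplies that enzyme with NADPH, had a log2 fold change of 0.53 and did not pass (adjusted p 0.118). The related mineralocorticoid receptor gene Nr3c2, which also binds corticosterone, ranged over the 12 libraries between 49.9 and 242 normalized reads and passed in no comparison in limma.

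Of the feedback and signalling targets, none passed between MI and sham. Fkbp5 (chr17:28399094-28517527, minus strand), which lowers the receptor's affinity for hormone, had 874, 553 and 660.3 normalized reads in NAC MI, 645, 700.5 and 751 in saline MI, 449, 835 and 359 in NAC sham and 625, 1147 and 409 in saline sham. The MI values lay within the range of the sham values after saline and overlapped them after NAC. Tsc22d3 (chrX:140539528-140600659, minus strand) encodes GILZ, a leucine zipper protein that restrains inflammatory signalling. It had 1672, 1098 and 1560.4 normalized reads in NAC MI, 1340.4, 1668 and 1385 in saline MI, 1474, 1562 and 1201 in NAC sham and 1459.9, 2896 and 2033 in saline sham. The high values were those of saline sham 2 and 3, and the log2 fold change of saline MI over saline sham was -0.49 (SE 0.24, adjusted p 0.478 in limma).

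Sgk1 (chr10:21882184-21999903, plus strand), a kinase that regulates ion channels, had 2668, 693 and 2299 normalized reads in NAC MI, then 1639.9, 1962 and 1975 in saline MI, against 1780.1, 7037 and 1549 in NAC sham and 3312, 5544 and 2933 in saline sham. After saline every MI library was below every sham library, which was so in either direction for 18.6% of all genes; after NAC the groups overlapped. The log2 fold change was -1.03 after saline (SE 0.56, adjusted p 0.509 in limma) and -0.88 averaged over treatments (SE 0.39, adjusted p 0.233). Without the 3 libraries NAC sham 2, NAC MI 2 and saline sham 3 the difference after saline was -1.21 with an adjusted p of 0.00416 in limma. That setting was chosen after seeing the data, and many more of all genes passed in it too, as counted in the closing section on processing. Dusp1 (chr17:26505590-26562128, minus strand), a phosphatase that switches off MAP kinases, had 2459.6, 1071 and 4045 normalized reads in NAC MI, 4477, 4085 and 1929.6 in saline MI, 1294, 6980.4 and 1539 in NAC sham and 4317, 4654 and 5176 in saline sham. Its MI and sham libraries overlapped after either treatment.

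Among the transcription factor targets, Cebpb (chr2:167688915-167690418, plus strand), a C/EBP factor of inflammatory and myeloid gene programmes, had 599, 294 and 267 normalized reads in NAC MI, against 53.8, 265 and 98.0 in NAC sham. It had 941, 711 and 477 in saline MI and 133, 149 and 118 in saline sham. The MI libraries were above the sham libraries after either treatment, although NAC MI 3 and NAC sham 2 were nearly level. Group means were 387 ± 184 in NAC MI, 709.5 ± 232 in saline MI, 139 ± 111 in NAC sham and 133 ± 15.5 in saline sham (SD, n = 3 libraries each). The log2 fold change of MI over sham after saline was 2.35 (SE 0.48, adjusted p 0.0399 in limma, 0.0485 in edgeR and 1.1e-04 in DESeq2). Leaving out any of the 6 libraries of that comparison in turn ended the limma call, with fold changes of 2.12 to 2.61 and adjusted p-values of 0.0767 to 0.231. Averaged over treatments it was 2.02 (SE 0.34, adjusted p 0.00784, higher in 6 of 6 MI libraries), and the call held in all 18 alternatives, with an adjusted p of at most 0.0308. After NAC the log2 fold change was 1.68 (SE 0.48, adjusted p 0.245), and without NAC sham 2 it was 2.30 (adjusted p 0.0245).

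Markers of macrophages and neutrophils were mostly higher with MI too, less so after NAC. In NAC MI against NAC sham 16 of 20 macrophage markers (median log2 fold change 0.49) and 12 of 14 tested neutrophil markers (median 1.68) were higher, and 0 passed. In saline MI against saline sham 20 of 20 macrophage markers were higher (3 passed, median log2 fold change 3.38), as were 14 of 14 tested neutrophil markers (6 passed, median 3.12). Of all genes 0.127% passed in limma after NAC and 0.86% after saline. By library the macrophage sum was 14925, 1315 and 12697 in NAC MI, 15922, 11639.9 and 17371 in saline MI, 2079.5, 24903 and 1536 in NAC sham, and 1294, 1622 and 1025 in saline sham. Cebpb did not follow this order in every library: NAC MI 2, with a macrophage sum within the range of the low sham libraries, had 294 normalized reads, and NAC sham 2, with the highest sum, had 265. The neutrophil sum of NAC MI 2 was 1436, above the 271 to 1309.9 of the sham libraries. In saline MI against saline sham 14 of 14 fibroblast markers (median 0.55, 0 passed) and 12 of 16 cardiomyocyte markers (median 0.19, 0 passed) were higher. So were 10 of 12 epicardial markers (median 0.95, 2 passed, Krt18 and Krt8). Of tested red cell markers 8 of 8 (median 0.52) and of lymphocyte markers 6 of 6 (median 0.43) were higher, and 0 passed. Only 1 of 15 endothelial (median -0.51) and 2 of 10 tested mural cell markers (median -0.44) were higher, and 0 passed. NAC MI 2 had an epicardial sum of 23578, against 5375.5 to 6235 in the other MI libraries and 2711 to 5750.4 in the sham libraries. The part of these cells in the Cebpb result was not tested, and in such bulk samples fewer cells of a type and less RNA per cell cannot be told apart. Exons of Cebpb share 312 bases with Tmem189 on the opposite strand, and the strand setting of the counting is not given in the sources used here. Tmem189 differed by log2 0.47 after saline and 0.23 after NAC.

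**Figure D2:**
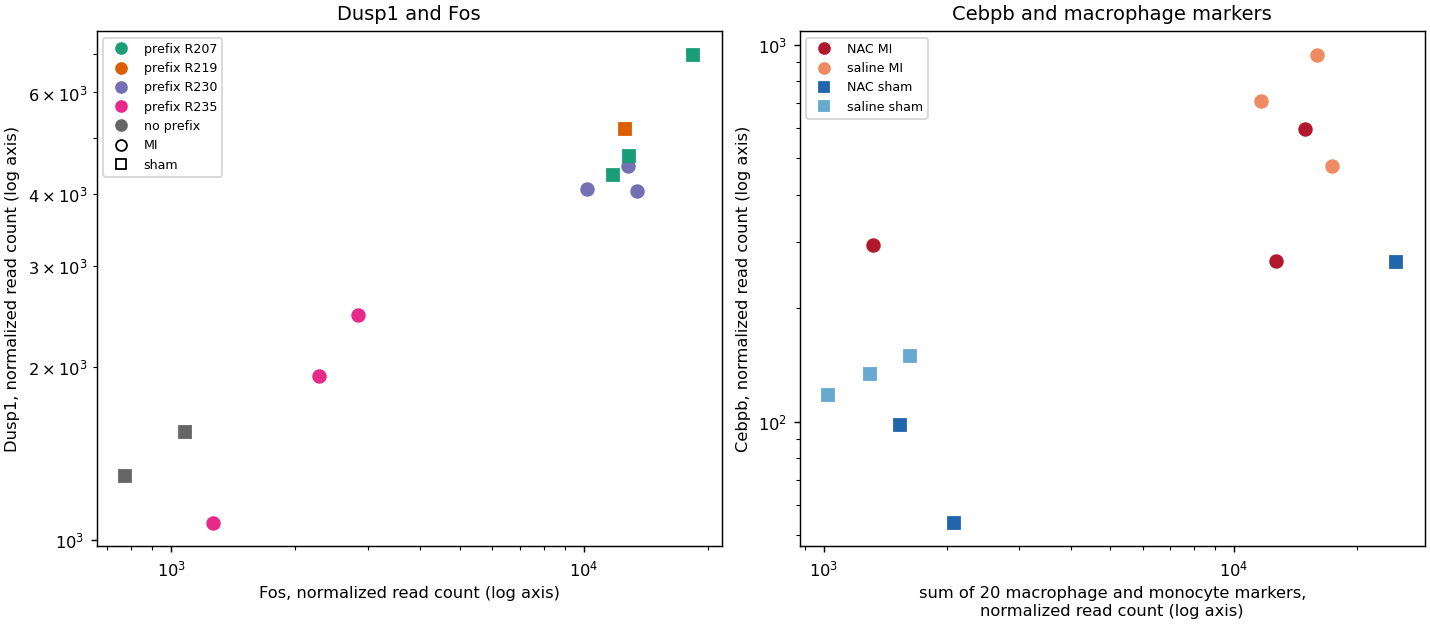
Left, Dusp1 against Fos, an immediate early gene, coloured by title prefix; right, Cebpb against the sum of 20 macrophage and monocyte markers, coloured by group. Each point is a library, circles are MI and squares sham, and all axes are logarithmic normalized read counts; Dusp1 follows Fos from 774 to 18376 reads of Fos, and NAC MI 2 and NAC sham 2 lie off the other libraries of their groups in macrophage markers.

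Cebpd (chr16:15887286-15891031, plus strand), the related C/EBP factor of acute responses, had 624, 443 and 516 normalized reads in NAC MI, 1009.5, 819 and 523 in saline MI, 136, 751 and 194 in NAC sham and 592, 833 and 697 in saline sham. The low libraries were NAC sham 1 and 3, and NAC sham 2 was above all NAC MI libraries. The log2 fold change of MI over sham after NAC was 0.95 (SE 0.48, adjusted p 0.523 in limma). Without NAC sham 2 it was 1.68 (adjusted p 0.0250), in a comparison where 8 to 67 of all genes passed with 1 library left out. Spidr, which shares 562 exon bases with Cebpd on the other strand, averaged 171 normalized reads and differed by log2 -0.02 in that comparison. Cebpa, a C/EBP relative of myeloid and fat cells outside the 10 genes, had 302, 224 and 370.3 normalized reads in saline MI. In saline sham it had 34.8, 69.5 and 76.2, without overlap, which was so in either direction for 18.6% of all genes. Its log2 fold change was 2.34 (SE 0.47, adjusted p 0.0357 in limma), and 6 of 12 alternatives ended that call.

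Zbtb16 (chr9:48654297-48836222, minus strand) encodes PLZF, a zinc finger repressor whose transcript is among the most hormone-sensitive. It had 124, 51.8 and 78.0 normalized reads in NAC MI, 63.9, 92.1 and 164 in saline MI, 55.0, 229 and 85.5 in NAC sham and 50.7, 581 and 27.4 in saline sham. The saline sham group held both the highest and the lowest library of all 12, a 21.2-fold range, and every pair of groups overlapped. Klf9 (chr19:23141226-23168134, plus strand), a Krüppel-like factor, had 1069.8, 689.7 and 469 normalized reads in NAC MI, 428, 650.0 and 714 in saline MI, 694, 884 and 675 in NAC sham and 781, 1884 and 515 in saline sham. Per1 (chr11:69095217-69109960, plus strand), a repressor of the circadian clock, had 1814, 1237 and 331 normalized reads in NAC MI, 614, 1809.5 and 497 in saline MI, 529.8, 1759.5 and 572 in NAC sham and 1716, 2339.8 and 490.3 in saline sham. In every group the highest library of Per1 was at over 3 times the lowest. Neither gene passed between MI and sham, and their groups overlapped.

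By arithmetic group means, saline sham was highest for Fkbp5, Tsc22d3, Sgk1, Dusp1, Zbtb16, Klf9 and Per1. NAC sham was highest for Nr3c1, and saline MI for Cebpd and Cebpb. For Fkbp5, Tsc22d3, Zbtb16, Klf9 and Per1 the saline sham mean included saline sham 2, the highest of all 12 libraries. Zbtb16 had 581 normalized reads there, against 50.7 and 27.4 in saline sham 1 and 3. On the log2 scale of the tests, the mean of saline MI was slightly above that of saline sham for Fkbp5 and Zbtb16. The log2 mean of NAC sham was also above that of saline sham for Zbtb16. Neighbours in the order of the 4 group means overlapped in their libraries for every gene, with the exception of NAC MI and NAC sham for Cebpb.

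**Figure D3:**
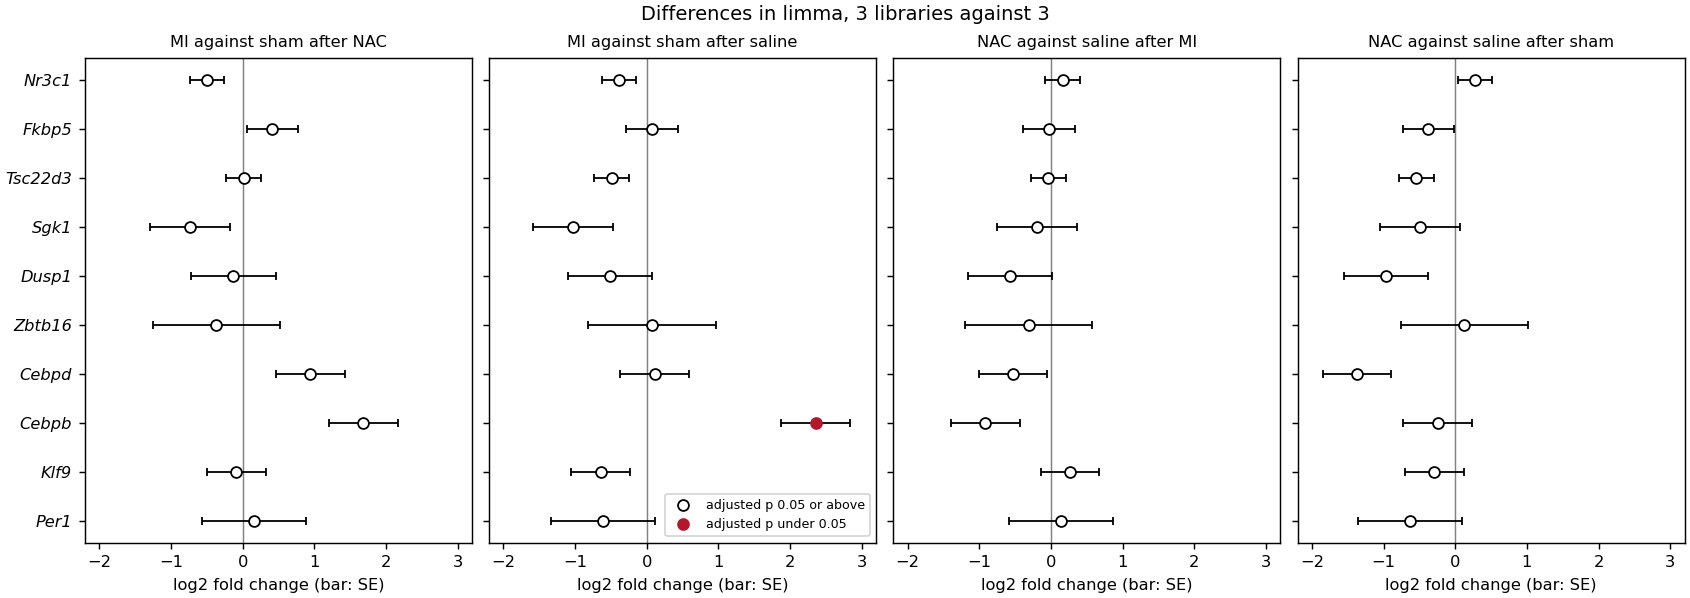
Log2 fold change in limma (horizontal axes; bars are SE) of the 10 genes in the 4 comparisons of 3 libraries against 3. The filled point is the single passing difference, Cebpb in saline MI over saline sham (2.35); all open points missed the threshold.

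The second question was whether NAC changed these genes. No member passed between NAC and saline in unweighted limma, edgeR or DESeq2, after sham surgery, after MI or averaged over both surgeries. In unweighted limma 0% of all 14996 genes passed in any of these comparisons. With library quality weights in limma, Cebpd and Dusp1 passed after sham (adjusted p 0.00790 and 0.0453) and averaged over surgeries (0.00366 and 0.0114). More of all genes passed with these weights too, as counted in the closing section on processing. NAC sham 2 had a weight of 0.25, beside 2.29 and 2.24 for NAC sham 1 and 3, which have no title prefix. The weighted difference after sham thus rested mainly on libraries in which NAC and prefix cannot be told apart. At an unadjusted p under 0.05 there were 2 members after sham (Cebpd and Tsc22d3), 0 after MI and 1 averaged (Cebpd), beside 5.89%, 9.22% and 15.5% of all genes. No member had groups without overlap in these 3 comparisons, beside 9.86%, 20.3% and 0.84% of all genes. The interaction of NAC and MI passed for no member in limma, edgeR or DESeq2 and for 0% of genes in limma, with no member and 2.03% of all genes at an unadjusted p under 0.05. The median log2 fold change of the members was -0.43 after sham, -0.12 after MI and -0.27 averaged, beside -0.02 over all genes in each.

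The differences with the smallest p in NAC sham against saline sham concerned Cebpd, with a log2 fold change of -1.37 (SE 0.48, unadjusted p 0.0134, adjusted p 0.770 in limma), and Tsc22d3, with -0.55 (SE 0.24, adjusted p 0.770). The 136 and 194 normalized reads of Cebpd in NAC sham 1 and 3 were below all saline sham libraries, and the 751 of NAC sham 2 lay within their range. With 1 library left out in turn, 0 to 80 of all genes passed in this comparison. Without NAC sham 2 the difference of Cebpd was -2.10 (adjusted p 0.0292 in limma). No title prefix then held both NAC sham and saline sham libraries, so NAC and prefix cannot be told apart without NAC sham 2. Without NAC sham 2, NAC MI 2 and saline sham 3 it was -2.11 for Cebpd (adjusted p 0.00436), -1.37 for Sgk1 (adjusted p 0.0104) and -1.67 for Dusp1 (adjusted p 0.0300). More of all genes passed there too, as counted in the closing section on processing. In that setting the remaining NAC sham libraries were the 2 without a title prefix and the remaining saline sham libraries both had the prefix R207, so NAC and prefix cannot be told apart there. Within R207, NAC sham 2 minus the mean of saline sham 1 and 2 was 0.10 for Cebpd, 0.72 for Sgk1 and 0.64 for Dusp1 on the log2 scale.

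After MI, Cebpb had the smallest p of the members, with a log2 fold change of NAC MI over saline MI of -0.92 (SE 0.48, adjusted p 0.559 in limma); NAC MI 1, with 599 reads, lay above saline MI 3, with 477. In the same comparison 0 of 20 macrophage markers (median -1.33) and 3 of 14 neutrophil markers (median -0.64) were higher in NAC MI than in saline MI. None passed in limma, and their part in the Cebpb difference was not tested. Only NAC MI 2 had a low macrophage sum (1315). NAC MI 1 and 3, with 14925 and 12697, lay within the saline MI range of 11639.9 to 17371. Within title prefixes the difference of Cebpb was -1.61 in R230 (NAC MI 3 against saline MI 1 and 2) and -0.18 in R235 (NAC MI 1 and 2 against saline MI 3). Per1 differed in opposite directions, by -1.67 in R230 and 1.59 in R235. Averaged over surgeries, Cebpd had a log2 fold change of -0.95 (SE 0.34, adjusted p 0.249) and Dusp1 of -0.77 (SE 0.41, adjusted p 0.378).

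Other genes of the pathway were taken from lists chosen by name. Of 40 further genes known to be induced by glucocorticoids, 37 were tested. Averaged over treatments 4 rose with MI and none fell: Il1r2, a decoy receptor for interleukin-1, Tgm2, a transglutaminase, Bcl6, a repressor, and Gadd45g, a stress gene. Tgm2 had 4628 to 6144 normalized reads in NAC MI and 4834 to 6566 in saline MI, against 2139.7 to 2804 in NAC sham and 2667 to 3836 in saline sham, with no overlap between MI and sham (a log2 fold change in limma of 0.97, SE 0.14, at an adjusted p of 0.00318). The median of the 37 was 0.07, beside 0.00 over all genes. Of all genes 2.74% passed, and 2.21% had no overlap between the 6 MI and the 6 sham libraries in either direction. The call of Gadd45g was lost in 8 of 18 alternatives (adjusted p up to 0.117), and those of the other 3 genes in none. Of 14 tested genes that glucocorticoids are known to repress, 5 rose with MI averaged over treatments (Mmp9, Il1b, Ptgs2, Vcam1 and Il6) and none passed as lower, with a median of 1.05. The calls of Il6 and Vcam1 were lost in 9 and 5 of 18 alternatives (adjusted p up to 0.128 and 0.0851), and those of Mmp9, Il1b and Ptgs2 in none. In the same averaged comparison 14 of 14 tested neutrophil markers (median 2.34, 8 passed) and 20 of 20 macrophage markers (median 1.90, 3 passed) were higher with MI. The part of these cells in the rises of the induced and repressed genes was not tested. Nos2, the inducible nitric oxide synthase and named after its values were seen, did not pass. Its normalized reads were 206, 48.0 and 188 with MI after NAC, 264, 254 and 193 with MI after saline, 354, 450.2 and 292.2 in NAC sham and 488, 335 and 464 in saline sham, so that all 6 MI libraries lay below all 6 sham libraries. Il1b, an inflammatory cytokine, had 622, 101 and 1001 normalized reads in NAC MI, then 1716, 1276 and 587 in saline MI, against 7.02, 169.9 and 4.45 in NAC sham and 3.62, 7.94 and 15.5 in saline sham. The sham library with 169.9 reads was NAC sham 2, which had the highest macrophage sum, whereas NAC MI 2, with a macrophage sum of 1315 that lay within the range of the saline sham libraries, had 101; the part of macrophages was not tested. Between NAC and saline none of the 37 induced or 14 repressed genes passed in limma. At an unadjusted p under 0.05 averaged over surgeries there were 2 and 1, beside 15.5% of all genes.

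The spread between libraries of a group was wide for most members. The pooled within-group SD on the log2 scale was 1.35 for Zbtb16 and 1.12 for Per1, above those of 96.3% and 93.3% of tested genes. It was 0.89 for Dusp1, 0.84 for Sgk1, 0.71 for Cebpd and for Cebpb, 0.60 for Klf9 and 0.52 for Fkbp5, all above the median of 0.38 over all genes. Nr3c1, with 0.31, and Tsc22d3, with 0.32, were below it.

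**Figure D4:**
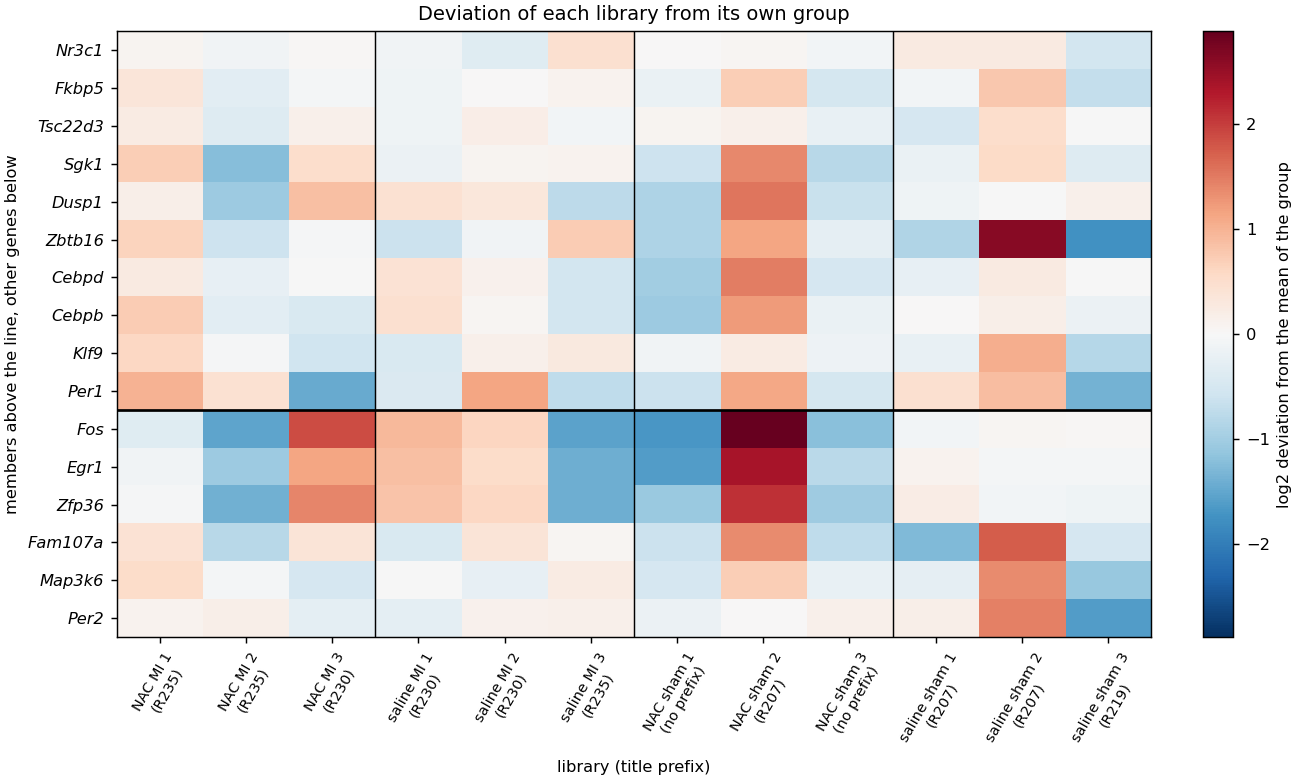
Log2 deviation (colour) of each library (columns, with title prefix) from the mean of its own group, for the 10 genes above the line and 6 other genes below it. NAC sham 2 is above its group mean by over 1 for Fos, Egr1, Zfp36, Dusp1, Cebpd, Sgk1, Fam107a, Cebpb, Zbtb16 and Per1, and saline sham 2 for Zbtb16, Fam107a, Per2, Map3k6 and Klf9.

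Some members deviated from their group means together. These correlations of deviations over the 12 libraries are descriptions, with no test, and the sets were chosen after the values were seen. Fkbp5, Zbtb16 and Klf9 had pairwise r of 0.80 to 0.90, and Dusp1, Cebpd, Cebpb and Sgk1 of 0.67 to 0.92. Pairs between the 2 sets ranged from -0.07 (Dusp1 and Klf9) to 0.81 (Fkbp5 and Sgk1). Without saline sham 2 and NAC sham 2, r was 0.69 for Fkbp5 and Zbtb16, 0.84 for Cebpb and Cebpd and 0.64 for Dusp1 and Sgk1. The genes most like Fkbp5 among 11980 genes were Slc26a2 (r 0.98), Wwtr1 (0.97) and Hps3 (0.97). Those most like Tsc22d3 were Zfp46 (0.94), Atp6v1b2 (0.93) and Castor1 (0.92), and those most like Zbtb16 were Prickle2 (0.98), Atp8b4 (0.96) and Sgms1 (0.96).

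Saline sham 2 had the highest value of all 12 libraries for 5 members, Fkbp5 (1147), Tsc22d3 (2896), Zbtb16 (581), Klf9 (1884) and Per1 (2339.8), and the highest of its own group for 8 of 10. Of the 37 further induced genes it was the highest of its group for 21, the lowest of its group for 5 and the highest of all 12 libraries for 8. Examples, named after their values were seen, are Fam107a, with 553 normalized reads in saline sham 2 against 52.6 to 228 in the other 11 libraries, and Map3k6, with 632 against 115 to 321. The clock gene Per2, also inducible by glucocorticoids, had 917 normalized reads in saline sham 2 and 109 to 493 elsewhere. Dbp, a clock output gene, had 81.4 there, against 373 and 317 in saline sham 1 and 3. It was also low in NAC MI 3 (93.9) and lowest in NAC sham 2 (58.7). The macrophage sum of saline sham 2, 1622, was close to those of saline sham 1 and 3. Its sum of cardiomyocyte markers was 397079, against 632267 and 634237. None of the 19 clock genes passed in any of the 7 comparisons in limma.

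Dusp1 followed the immediate early genes, which cells switch on within minutes of a stimulus. The 3 genes most like it were Fos, Ier2 and Zfp36 (r 0.98 each), named after their values were seen; Zfp36 is in the list of further hormone-induced genes as well as among the immediate early genes. With any single library left out r with Fos was 0.961 to 0.997. Dusp1 and Fos also divided by title prefix: Dusp1 had 1071 to 2459.6 normalized reads in R235, 4045 to 4477 in R230, 4317 to 6980.4 in R207, 5176 in R219 and 1294 to 1539 in the 2 libraries with no prefix. Fos had 1263 to 2834 in R235, 10160.2 to 13422 in R230, 11737 to 18376 in R207, 12584 in R219 and 774 to 1083 with no prefix. Both genes were thus low in 5 libraries, the 3 of R235 and the 2 without a prefix, of which 4 had NAC. Averaged over surgeries, 20 of 22 immediate early genes were lower with NAC than with saline, with a median of -0.81 beside -0.02 over all genes, and none passed in limma (10 at an unadjusted p under 0.05, beside 15.5% of all genes). Markers of other cells differed in both directions: in the same comparison 0 of 8 red cell markers (median -1.08), 0 of 6 lymphocyte markers (median -1.21) and 1 of 15 endothelial markers (median -0.30) were higher, while 10 of 12 epicardial (median 0.66), 11 of 20 macrophage, 10 of 14 neutrophil, 6 of 14 fibroblast, 3 of 10 mural cell and 7 of 16 cardiomyocyte markers were. None of these markers passed in limma. The red cell sum was 265899 to 521632 in NAC MI and 877323 to 1382770 in saline MI, then 189077 to 412829 in NAC sham and 547259 to 1398010 in saline sham. The part of these cells in the differences between NAC and saline was not tested. Within R230, which holds NAC MI 3 and saline MI 1 and 2, NAC minus saline was -0.08 for Dusp1, within R235 -0.25 and within R207 0.64 on the log2 scale.

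NAC sham 2 had the highest value of all 12 libraries for Nr3c1 (1909), Sgk1 (7037) and Dusp1 (6980.4), and the highest of its own group for all 10 members. It was also the highest of its group for 22 of 22 immediate early genes and for 21 of 37 further induced genes, but the lowest of its group for 14 of these 37. NAC MI 2 was the lowest of all 12 libraries for Tsc22d3 (1098), Sgk1 (693) and Dusp1 (1071). Sgk1 deviated from group means much as the macrophage marker Itgam did (r 0.97, chosen after the values were seen, and 0.93 without saline sham 2 and NAC sham 2). Within saline sham, replicate 2 was the highest for both Sgk1 (5544) and the macrophage sum (1622). Levels between groups are a separate matter: saline MI had macrophage sums of 11639.9 to 17371 with Sgk1 at 1639.9 to 1975. The part of macrophages in the level of Sgk1 was not tested.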

How the data were processed

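RNA sequencing of poly-A enriched RNA from 12 libraries was deposited as 1 table of 52336 genes. Its values are a normalized signal: gene read counts that the authors divided by 1 size factor per library. Multiplied back, 100% of values came within 0.01 of a whole read. Tools and build are known from the submitters' processing notes, which list mm10, DESeq2 1.44.0 and STAR 2.7.10a; the counter, annotation and strand setting are not given in the sources used here. Symbols, positions and exon lengths came from a GENCODE annotation of GRCm38 (52079 identifiers matched), promoters from RefSeq.

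Values were tested as log2(value + 1), the scale of all fold changes, with limma 3.58.1 (R 4.3.3, trended variance, 4 group means, 8 residual degrees of freedom, two-sided), for genes with a mean of at least 10. Adjustment was by Benjamini-Hochberg over the 14996 genes. The test was checked on simulated data. The alternatives were a pseudocount of 5, no filter, library quality weights, edgeR 4.0.16, DESeq2 1.42.0, leaving out each library, a title prefix block and, chosen after seeing the data, leaving out 3 libraries. Members and lists (271 of 272 symbols matched) were chosen with earlier results of these data known. By the rule for named genes the text names all members, may name genes of the pathway lists that pass or have 1 of the 3 smallest p-values in a comparison, and takes the 3 genes most like Fkbp5, Tsc22d3 and Zbtb16 among genes with a mean of at least 50. Fold changes are given where the unadjusted p is under 0.1 or a setting or prefix is described.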

Additional observations from a re-analysis of the deposited data

How the results depend on the processing

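With library quality weights 3 members passed in MI against sham after saline (Cebpb, Sgk1 and Nr3c1) and 3 after NAC (Cebpb, Cebpd and Fkbp5). Averaged over treatments 3 passed (Cebpb, Cebpd and Nr3c1). In NAC against saline 2 passed after sham (Cebpd and Dusp1) and the same 2 averaged over surgeries. Genes passing were 2915, 806, 4187, 421 and 2021 in the same order of comparisons, and 685 in NAC against saline after MI. Without NAC sham 2, NAC MI 2 and saline sham 3 these members numbered 2, 2, 3, 3 and 1 and these genes 1807, 575, 2183, 418 and 328, with 6 genes in the interaction. DESeq2 called 464, 241, 1218, 53 and 437 genes, 11 in NAC against saline after MI and 1 in the interaction, and a pseudocount of 5 called 43 in MI against sham after NAC. With 1 library left out, members passing ranged over 0 to 0 (MI after saline), 0 to 2 (MI after NAC), 1 to 2 (MI averaged), 0 to 1 (NAC after sham), 0 to 0 (NAC after MI), 0 to 1 (NAC averaged) and 0 to 0 (interaction); genes ranged over 15 to 105, 8 to 67, 133 to 1563, 0 to 80, 0 to 4, 0 to 250 and 0 to 4. The causes were not tested.

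Of the member differences, the 14 with an unadjusted p under 0.1 kept their sign under every alternative run, and 33 of the other 56 changed sign under at least 1. Between NAC MI and saline MI, deviations of libraries with the same prefix correlated weakly and always positively, at 0.0185 to 0.0710. Those of other pairs correlated weakly and always negatively, at -0.0740 to -0.00156. Deviations from a group mean sum to 0 within the group, so positive values for some pairs force negative ones for others. The negative signs are therefore no separate observation. Whether the prefix accounts for this split was not tested. With prefix as a replicate block over the 6 MI libraries, 0 members and 0 genes passed between NAC and saline after MI, as without it. With 3 libraries a group and the spreads given, a difference that missed the threshold may still be present.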
